A study of Rattus norvegicus with 48 samples.

Results

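rno-miR-142-3p, rno-miR-223, rno-miR-150 and rno-miR-342-3p are 4 miRNAs known from white blood cells, and they were chosen by name from the 143 miRNAs in a NanoString nCounter table of rat liver. The table held 48 samples from male Sprague-Dawley rats, in 16 groups of 3. The rats were aged 8 to 14 wk and pair-fed a liquid diet for 6 to 8 wk. Ethanol (EtOH) or maltose-dextran carbohydrate (CHO) made up 36% of its calories. Whether a 0 h sample and a later sample came from 1 rat is not stated, and each sample is called an animal below. All but the 0 h animals were collected after a 70% partial hepatectomy (PHx), the removal of the left lateral and medial lobes, after which the remnant liver regrows. Untreated animals of each diet were taken at 0, 6, 24, and 72 h. At 0 and 24 h there were also animals injected with saline and animals injected with AM21, a locked nucleic acid oligonucleotide antisense to miR-21, given at 7.5 mg/kg 72 h before surgery and again directly after it. Whether the 0 h animals had the later injection is not stated, so the dose may differ between 0 and 24 h. The labels put the animals at 0 and 24 h in numbered sets 1 to 3 and all animals at 6 and 72 h in set 4, without saying what a set is (set 4 animals are numbered 4_1 to 4_12), so 6 or 72 h against 0 h crosses sets while 24 h against 0 h and 72 h against 6 h do not. Each library came from whole liver, so fewer cells of a type and less RNA per cell cannot be told apart.

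miRNAs are short RNAs that guide a silencing complex to messenger RNAs, chiefly by pairing of a seed near their 5′ end. miR-142-3p is made in nearly all blood-forming lineages, miR-223 mainly in neutrophils, monocytes, and macrophages, and miR-150 mainly in mature B, T, and natural killer lymphocytes, where it represses the transcription factor Myb. miR-342-3p comes from an intron of Evl and is found in lymphoid and monocytic cells, and the liver also holds resident macrophages, the Kupffer cells, together with blood in its sinusoids. The paper that reported these data also lists miR-150 among miRNAs lowered in activated hepatic stellate cells. That list also holds miR-122, miR-125a-5p, miR-126, miR-146a, miR-181a, miR-192, and miR-194. Among miRNAs enriched in liver sinusoidal endothelial cells, the paper lists miR-142-3p, miR-150, miR-181a, miR-146a, miR-146b, miR-125a-5p, miR-145, and miR-199a-5p. The paper cautions that several of its listed miRNAs occur outside the cell type they are listed for.

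RefSeq sequences on the rat build GRCr8 were matched for 3 of the 4 names, and the deposited name rno-miR-223 was matched to rno-miR-223-3p. Capitals mark the seed, bases 2 to 8, and the sequences are shown because a shared seed would let the miRNAs act on the same sites.
rno-miR-142-3p: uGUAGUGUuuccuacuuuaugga
rno-miR-223: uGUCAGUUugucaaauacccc
rno-miR-342-3p: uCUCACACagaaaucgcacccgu
All 3 lie on the plus strand, miR-142-3p at chr10:73055155-73055177 inside the span of Tspoap1, miR-223 at chrX:65151450-65151470 inside the long noncoding RNA LOC120099372, and miR-342-3p at chr6:133329715-133329737 inside the spans of Evl and of the long noncoding RNA LOC102555052. No seed was shared among these 3, and 0 other entries of the 724 mature miRNAs in the RefSeq table carried any of them. rno-miR-150 is named only.

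All 4 miRNAs had nonzero counts in every animal. The paper's methods name no background correction, so the background share of a low count is not known. The counts, recovered from the deposited log2 CPM, a log2 count scaled to the size of its library, ran from 42 to 431 for miR-142-3p (median 183.5), from 66 to 324 for miR-150 (median 169), from 29 to 159 for miR-342-3p (median 92) and from 18 to 97 for miR-223 (median 50). The lowest count of miR-223, 18, had an exact 95% Poisson interval of 10.7 to 28.4, and that of miR-142-3p, 42, one of 30.3 to 56.8, and these intervals cover counting error only. Probes differ in efficiency, so the levels below are compared within a miRNA and not between miRNAs. Total counts ran from 58168 to 267582 per animal and the hepatocyte miRNA miR-122 took 42.1% to 68.8% of them. The number 2 untreated animals at 0 h had the lowest totals of their diets at that time, 58168 in the CHO group and 92245 in the EtOH group, and calls that change without both of them are given both ways.

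Across the 16 groups, the mean level spanned 1.24 on the log2 scale for miR-150, 1.21 for miR-342-3p, 1.07 for miR-142-3p and 0.97 for miR-223. miR-150 was highest in CHO rats at 6 h, at 10.86 ± 0.24 log2 CPM (SD, n = 3), and lowest in EtOH rats at 72 h, at 9.62 ± 0.19. Its 6 groups at 0 h stood together below the 6 h groups, from 10.31 to 10.49, and its 24 and 72 h groups filled the lower ranks. miR-342-3p was highest at 6 h, at 9.67 ± 0.11 in EtOH and 9.58 ± 0.19 in CHO rats, and lowest in CHO rats at 0 h, at 8.46 ± 0.23 with saline and 8.60 ± 0.62 untreated. For miR-142-3p the order ran from 10.63 ± 0.55 in EtOH saline animals at 24 h to 9.56 ± 0.25 in CHO saline animals at 0 h. miR-223 ran from 8.74 ± 0.50 in untreated CHO rats at 24 h down to 7.76 ± 0.18 in EtOH saline animals at 0 h. No neighbouring groups in any of the 4 orders differed by more than the SD within groups, which was 0.42 for miR-142-3p, 0.31 for miR-223, 0.26 for miR-150, and 0.25 for miR-342-3p.

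**Figure D1:**
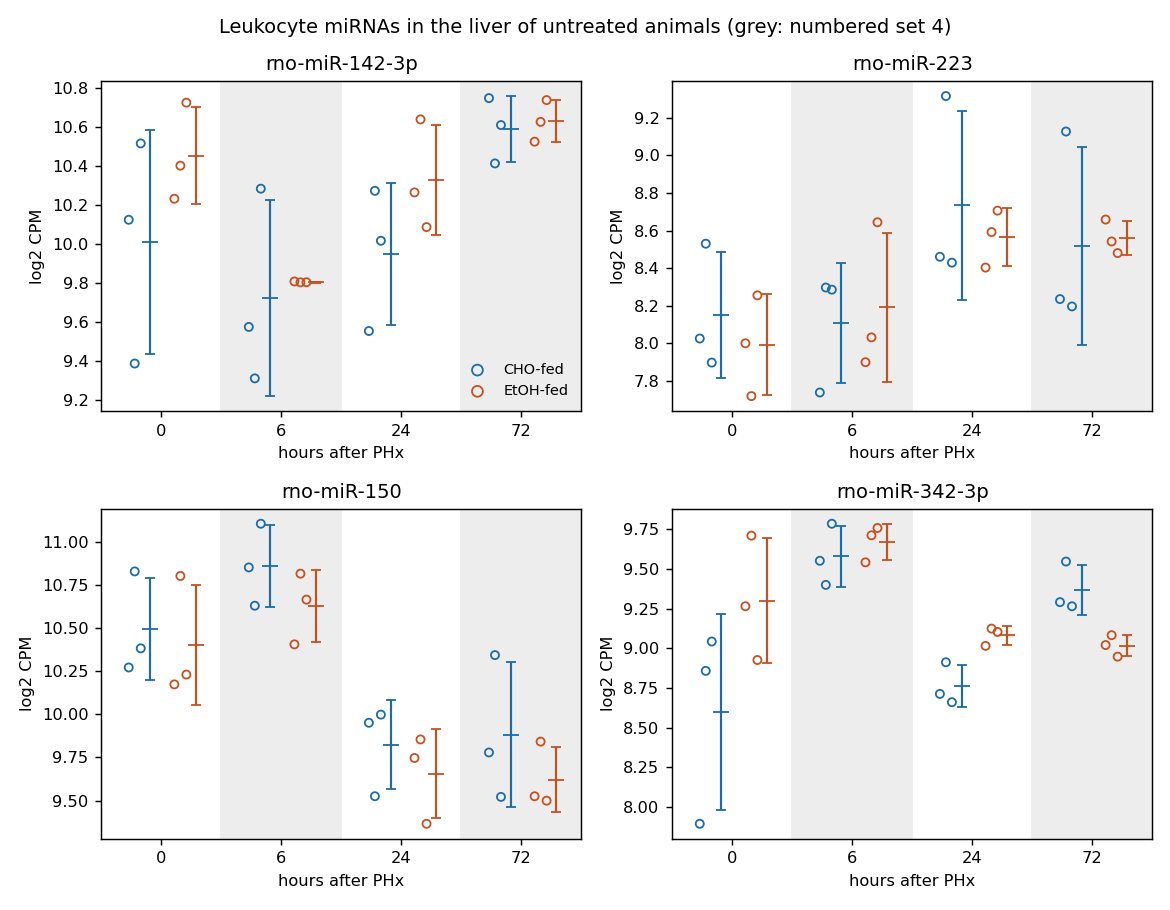
Level of each miRNA in log2 CPM (y axis) against hours after PHx (x axis) in the 24 untreated animals, with circles for animals, bars for the mean ± SD of 3 animals, blue for CHO and orange for EtOH, and grey marking set 4. miR-150 sat lower at 24 and 72 h than at 6 h in both diets, while the group mean of miR-142-3p was lowest at 6 h and highest at 72 h.

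miR-150 had the highest F for time of the 4 in both diets. In untreated CHO rats it began at 10.27, 10.83, and 10.38 log2 CPM before PHx, then read 10.85, 10.63, and 11.10 at 6 h, 9.95, 9.53, and 9.998 at 24 h, and finally 9.78, 10.34, and 9.52 at 72 h. In untreated EtOH rats the 0 h values were 10.17, 10.80, and 10.23, followed by 10.40, 10.81, and 10.66 at 6 h, by 9.75, 9.85, and 9.37 at 24 h, and lastly by 9.52, 9.84, and 9.50 at 72 h. In both diets every animal at 24 h and at 72 h lay below every animal at 6 h, and the 0 h animals overlapped those at 6 h in both diets and those at 72 h in CHO rats. Time was tested with limma on the log2 CPM of all 143 miRNAs, and every adjusted p in the text is the Benjamini-Hochberg value over those 143, called under 0.05. The F test over 6, 24, and 72 h against 0 h called miR-150 in CHO rats (F = 9.56, limma adjusted p = 0.00315) and in EtOH rats (F = 10.13, limma adjusted p = 0.00219). This test called 32.9% of all miRNAs in CHO and 39.9% in EtOH rats, against 2 of the 4 (miR-150 and miR-342-3p) and 1 of the 4 (miR-150).

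Between 6 and 72 h, both in set 4, miR-150 fell by 0.98 on the log2 scale in CHO rats (SE 0.23, 1.97-fold lower, limma adjusted p = 0.00391) and by 1.01 in EtOH rats (SE 0.23, 2.01-fold lower, limma adjusted p = 0.00203). The contrast called 30.8% of all miRNAs in CHO rats and 37.1% in EtOH rats, against 2 and 3 of the 4. Total counts differed between these times, being 87009 to 196972 at 6 h against 163533 to 267582 at 72 h. With log10 total count in the fit, the CHO difference was -0.83 with a limma adjusted p of 0.052, and the EtOH call remained. Against 0 h, miR-150 at 72 h fell by 0.78 in EtOH rats (SE 0.23, limma adjusted p = 0.0174), where the groups did not overlap, and the background was 18.2% called. That call was lost without the number 2 animal at 0 h (-0.58, limma adjusted p = 0.0971, and 0.0632 without that of both diets), without animal 4_10 or 4_12 at 72 h (limma adjusted p = 0.0799 and 0.0653), and with log10 total count in the fit (-0.67, limma adjusted p = 0.0502). In CHO rats, where the background was also 18.2%, the difference of -0.61 (95% interval -1.09 to -0.14) did not pass (limma adjusted p = 0.0566), and passed without animal 4_8 at 72 h (-0.84, limma adjusted p = 0.017).

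At 24 h the change could be read within sets, over untreated and saline animals together. miR-150 ran from 10.21 to 10.83 log2 CPM (median 10.33) in the 6 CHO control animals at 0 h and from 9.53 to 10.20 (median 9.97) in the 6 at 24 h. In EtOH controls it ran from 10.12 to 10.80 (median 10.23) at 0 h and from 9.37 to 10.06 (median 9.70) at 24 h. Neither diet had an animal at 24 h that reached the lowest animal at 0 h. miR-150 fell by 0.52 in CHO controls (SE 0.15, limma adjusted p = 0.0142) and by 0.68 in EtOH controls (SE 0.15, limma adjusted p = 0.00214), and the backgrounds were 25.2% and 11.2% called. Within sets 1, 2, and 3 the difference was -0.37, -0.88, and -0.30 in CHO and -0.51, -0.80, and -0.72 in EtOH controls. With log10 total count in the fit, the CHO difference was -0.38 with a limma adjusted p of 0.0835. Untreated animals alone gave -0.67 in CHO (limma adjusted p = 0.0776) and -0.75 in EtOH rats (limma adjusted p = 0.0707), each without overlap of the groups. With the numbered set as a block, the value in untreated CHO rats passed (limma adjusted p = 0.0498). In these untreated contrasts 0 of the 4 miRNAs were called in either diet, with 2 of the 4 at an unadjusted p under 0.05 in each, and the background was 1.4% in each.

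**Figure D2:**
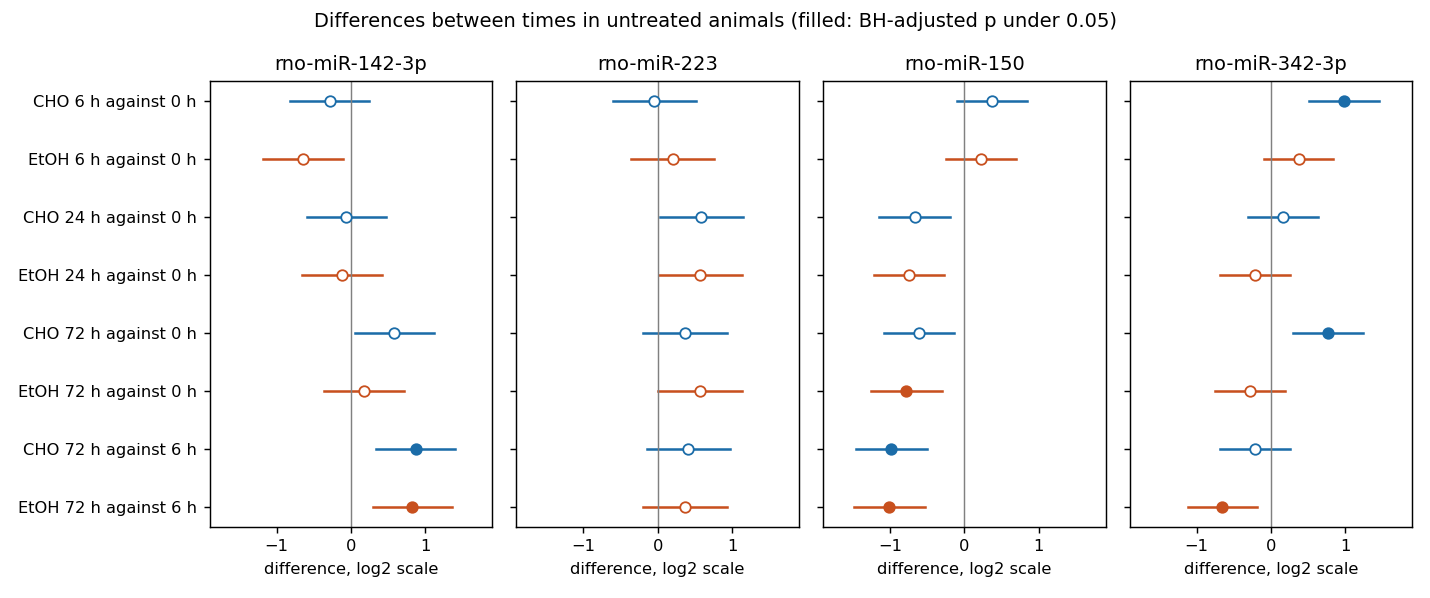
Difference in log2 CPM between times (x axis) for each contrast and diet (y axis) in untreated animals, as limma estimates with 95% intervals, blue for CHO and orange for EtOH, with filled points where called. miR-150 and miR-142-3p were called in opposite directions between 6 and 72 h in both diets.

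miR-142-3p moved the other way between 6 and 72 h. At 6 h CHO rats had 9.57, 9.31, and 10.28 log2 CPM, against 10.75, 10.41, and 10.61 at 72 h. EtOH rats went from 9.81, 9.80, and 9.80 to 10.52, 10.62, and 10.74. In both diets all 3 animals at 72 h lay above all 3 at 6 h. miR-142-3p rose by 0.87 in CHO rats (SE 0.26, 1.82-fold, limma adjusted p = 0.0156) and by 0.82 in EtOH rats (SE 0.26, 1.77-fold, limma adjusted p = 0.0148), within the backgrounds of 30.8% and 37.1% given above. With log10 total count in the fit, neither rise passed (0.64 and 0.63, limma adjusted p = 0.175 and 0.0939), and the CHO call was lost without animal 4_1, 4_2, or 4_7 (limma adjusted p from 0.0541 to 0.104) and the EtOH call without animal 4_12 (limma adjusted p = 0.0585). Against 0 h, where the values were 10.12, 9.39, and 10.51 in CHO and 10.23, 10.40, and 10.72 in EtOH rats, no time was called. The CHO difference at 72 h was 0.58 (limma adjusted p = 0.106) and passed without the number 3 animal at 0 h (0.83, limma adjusted p = 0.0303). The EtOH rats at 6 h all lay below those at 0 h (-0.65, 95% interval -1.18 to -0.11, limma adjusted p = 0.0907), and without both number 2 animals at 0 h this difference passed (-0.67, limma adjusted p = 0.0358), as did that of miR-342-3p (0.57, limma adjusted p = 0.0479). At 6 h against 0 h in EtOH rats 0 of the 4 miRNAs were called and 1 had an unadjusted p under 0.05, with 11.2% of all miRNAs called. The F test for miR-142-3p missed the threshold in CHO (limma adjusted p = 0.0506, 0.0307 with the numbered set as a block, and 0.0146 to 0.0406 without any 1 of 4 animals: number 2 or 3 at 0 h, number 2 at 24 h, or 4_3 at 6 h) and in EtOH rats (limma adjusted p = 0.0582). Without both number 2 animals at 0 h it passed in CHO rats (limma adjusted p = 0.0124) and in EtOH rats (limma adjusted p = 0.0204).

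The log2 ratio of miR-142-3p to miR-150 within an animal does not depend on library scaling, and only its differences between animals can be read. It ran from -1.32 to -0.82 in CHO and from -1.01 to -0.60 in EtOH rats at 6 h, and from 0.07 to 1.09 and from 0.78 to 1.24 at 72 h. All 6 animals at 72 h had a higher ratio than all 6 at 6 h. At 24 h the untreated EtOH rats ran from 0.52 to 0.78 and the CHO rats from -0.40 to 0.75, and at 0 h the ratio ranged widely, from -1.44 to 0.13 in CHO and from -0.40 to 0.49 in EtOH rats. This ratio was chosen after the values were seen and was not tested.

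**Figure D3:**
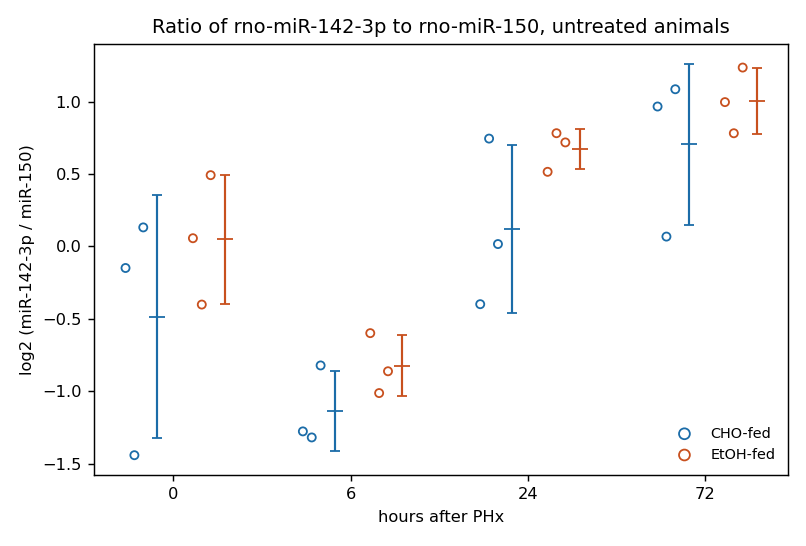
Log2 ratio of miR-142-3p to miR-150 (y axis) against hours after PHx (x axis) in the 24 untreated animals, with circles for animals and bars for the mean ± SD of 3, blue for CHO and orange for EtOH. Animals at 6 h lay between -1.32 and -0.60 and animals at 72 h between 0.07 and 1.24.

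miR-223, the member most tied to myeloid cells, was called at 24 h in EtOH controls. In EtOH controls it ran from 7.64 to 8.26 log2 CPM (median 7.84) in 6 animals at 0 h and from 8.38 to 8.71 (median 8.57) in 6 at 24 h, with no overlap. It rose by 0.67 (SE 0.17, 1.59-fold, limma adjusted p = 0.00732, background 11.2%), and by 0.55, 0.73, and 0.72 within sets 1, 2, and 3. In CHO controls it ran from 7.90 to 8.53 (median 8.22) at 0 h and from 8.11 to 9.32 (median 8.38) at 24 h, and these ranges overlapped. The difference was 0.27 (95% interval -0.07 to 0.61, limma adjusted p = 0.243), with 0.17, 0.20, and 0.44 within sets. The change did not pass a test of its difference between diets, which gave 0.40 more in EtOH controls (95% interval -0.08 to 0.88, unadjusted p = 0.101 and adjusted p = 0.537 by limma). In that test of all 143 miRNAs 0% were called and 14 had an unadjusted p under 0.05, while 0 of the 4 members were called and 1 of the 4, miR-342-3p, had an unadjusted p under 0.05.

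In untreated animals alone miR-223 was 0.58 higher at 24 h in CHO rats (limma adjusted p = 0.169) and 0.57 higher in EtOH rats (limma adjusted p = 0.253), and neither was called. At 72 h the EtOH rats, at 8.66, 8.54, and 8.48, all lay above those at 0 h, at 8.001, 7.72, and 8.26 (0.57, 95% interval 0.01 to 1.13, limma adjusted p = 0.145). The 2 highest untreated values of miR-223 were in CHO rats, 9.32 at 24 h and 9.13 at 72 h, each in a group whose other 2 animals lay between 8.20 and 8.46. At 6 h against 0 h the differences of -0.04 in CHO and 0.20 in EtOH rats were both smaller than their SE of 0.27.

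**Figure D4:**
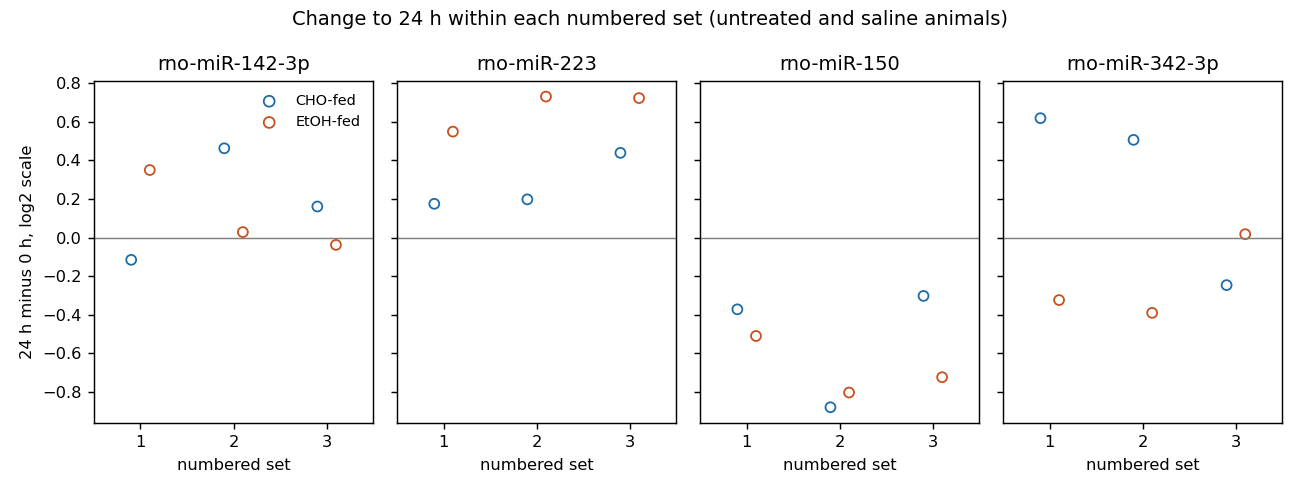
Mean log2 CPM at 24 h minus that at 0 h (y axis) within numbered sets 1, 2, and 3 (x axis), over the untreated and saline animals of a diet, where each circle compares 2 animals at 24 h with 2 at 0 h, blue for CHO and orange for EtOH. miR-150 lay below 0 in every set and diet and miR-223 above 0, while miR-142-3p and miR-342-3p had both signs.

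miR-342-3p was called over time in CHO rats and, between 6 and 72 h, in EtOH rats. In untreated CHO rats it began at 7.90, 8.86, and 9.04 log2 CPM before PHx, then read 9.55, 9.40, and 9.79 at 6 h, 8.71, 8.91, and 8.66 at 24 h, and finally 9.29, 9.55, and 9.27 at 72 h. In EtOH rats it began at 9.27, 9.71, and 8.93 before PHx, then read 9.54, 9.71, and 9.76 at 6 h, 9.02, 9.12, and 9.10 at 24 h, and finally 9.02, 9.08, and 8.95 at 72 h. The CHO rats at 6 and 72 h all lay above those at 0 h, whereas every EtOH group overlapped 0 h. In CHO rats miR-342-3p rose by 0.98 at 6 h (SE 0.23, 1.97-fold, limma adjusted p = 0.0199, background 2.1%), the smallest p of the 143 miRNAs in that contrast, and by 0.77 at 72 h (SE 0.23, 1.70-fold, limma adjusted p = 0.0223, background 18.2%). It was the 1 of the 4 called in each of these contrasts. Its F test was called in CHO rats (F = 8.66, limma adjusted p = 0.00529) and missed the threshold in EtOH rats (F = 3.40, limma adjusted p = 0.0772), where it passed with the numbered set as a block (limma adjusted p = 0.0205) and without the number 2 animal at 0 h (limma adjusted p = 0.0445, and 0.0294 without that of both diets).

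Both CHO rises of miR-342-3p crossed sets and leaned on the number 1 animal at 0 h, which had the lowest value of all 48 animals, 7.90 from 31 counts. Without it they were 0.63 (limma adjusted p = 0.248) and 0.42 (limma adjusted p = 0.137). Each call was also lost on leaving out any 1 of the 3 animals at the later time, with limma adjusted p of 0.0504 to 0.0716 for 6 h and 0.0502 to 0.0645 for 72 h. In EtOH rats the differences from 0 h were 0.37 at 6 h (95% interval -0.10 to 0.84) and -0.28 at 72 h (95% interval -0.75 to 0.18). Within set 4, miR-342-3p fell by 0.65 from 6 to 72 h in EtOH rats (SE 0.23, limma adjusted p = 0.0254) without overlap, and was -0.21 in CHO rats (95% interval -0.68 to 0.26). With log10 total count in the fit the EtOH value was -0.48 (limma adjusted p = 0.14), and leaving out any 1 of 4 animals, 4_5, 4_6, 4_10, or 4_12, lost the call (limma adjusted p from 0.057 to 0.0819). At 24 h against 0 h in pooled controls miR-342-3p differed by 0.29 in CHO rats (95% interval -0.04 to 0.62, limma adjusted p = 0.187) and by -0.23 in EtOH rats (95% interval -0.56 to 0.10, limma adjusted p = 0.374). Within sets 1, 2, and 3 these were 0.62, 0.51, and -0.25 and -0.32, -0.39, and 0.02, and with log10 total count in the fit the CHO value passed (0.49, limma adjusted p = 0.0282). The test of diet by time called 0% of the 143 miRNAs, 8 of which had an unadjusted p under 0.05. Of the 4 members 0 were called, and miR-342-3p (F = 3.78, unadjusted p = 0.0245, adjusted p = 0.701 by limma) was 1 with an unadjusted p under 0.05.

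The diets differed in miR-342-3p before surgery. Over the untreated, saline, and AM21 animals at 0 h, it ran from 8.93 to 9.71 log2 CPM (median 9.45) in 9 EtOH rats and from 7.90 to 9.33 (median 8.68) in 9 CHO rats, so that the ranges overlapped. It was 0.72 higher in EtOH rats (SE 0.13, 95% interval 0.45 to 0.99, 1.65-fold, limma adjusted p = 0.000948), the smallest p of the 143 miRNAs, of which 14.7% were called. Of the 4 members it was the 1 called. Within sets 1, 2, and 3 the difference was 0.96, 0.81, and 0.38. Under every other scaling, filter, covariate, and omission of an animal that was run, it stayed between 0.60 and 0.94 with a limma adjusted p of at most 0.0162. By treatment the difference was 1.07 in saline animals, where the 3 EtOH rats at 9.62, 9.51, and 9.45 all lay above the CHO rats at 8.53, 8.21, and 8.66. It was 0.70 in untreated animals (limma adjusted p = 0.103, 0.0484 with the numbered set as a block, and 0.0381 at 0.92 without CHO animal number 3) and 0.39 in AM21-treated animals, both with overlap. Total counts at 0 h ran from 58168 to 171780 in CHO and from 92245 to 240355 in EtOH rats.

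At 24 h miR-342-3p ran from 9.02 to 9.44 in 9 EtOH rats (median 9.15) and from 8.55 to 9.29 in 9 CHO rats (median 8.94). The groups did not overlap in untreated animals (0.32) or in saline animals (0.40) and overlapped in AM21-treated animals (0.04). The difference of 0.25 over all treatments (95% interval -0.02 to 0.52, limma adjusted p = 0.339) was not called, as 0 of the 4 members were, with 0 of the 4 at an unadjusted p under 0.05 and 1.4% of all miRNAs called. The diet difference of miR-342-3p at 24 h minus that at 0 h was -0.47 (95% interval -0.85 to -0.09, unadjusted p = 0.0182), which did not pass the adjustment (adjusted p = 0.275 by limma), and this test called 0% of all miRNAs and 0 of the 4 members, with 17 of the 143 and 1 of the 4 at an unadjusted p under 0.05.

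**Figure D5:**
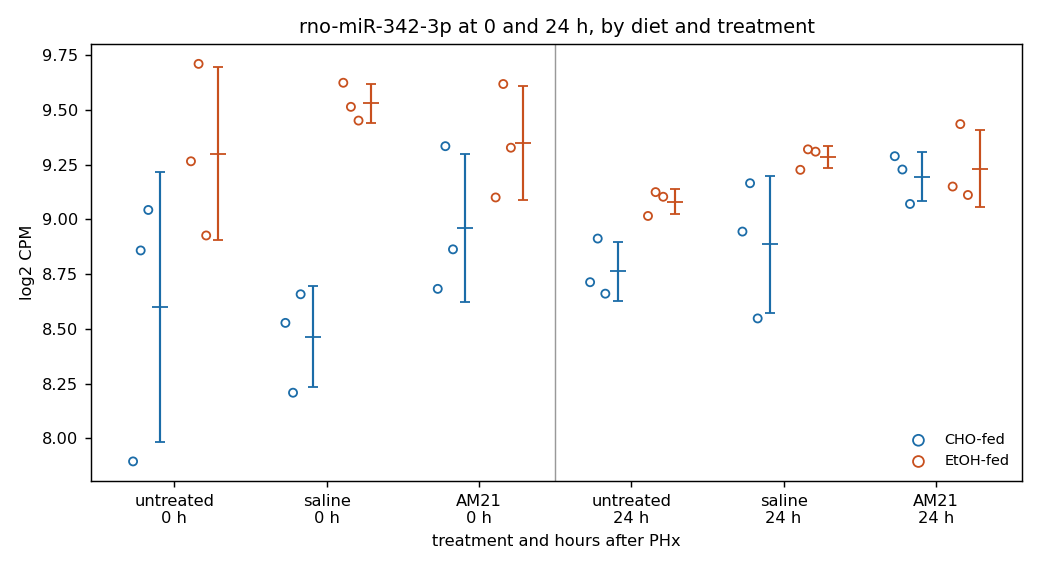
Level of miR-342-3p in log2 CPM (y axis) in the 36 animals at 0 and 24 h, by treatment and time (x axis), with circles for animals and bars for the mean ± SD of 3, blue for CHO and orange for EtOH. The gap between diets was 0.72 over the treatments at 0 h and 0.25 at 24 h.

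The other 3 members showed no called difference between the diets. At 0 h over all treatments, miR-142-3p was 0.44 higher in EtOH rats (95% interval 0.03 to 0.85, limma adjusted p = 0.137). That value turned on 1 CHO AM21 animal, number 2, at 11.21 log2 CPM, the highest of the 48 animals, while the other 2 of its group had 9.41 and 9.21. Without it the difference was 0.65 and passed (limma adjusted p = 0.00646). The same animal had the highest summed level of the red blood cell miRNAs miR-451 and miR-144 of the 48 animals, 5974 CPM, against 1130 and 1374 in the other 2. The animals ranked 2 to 5 by that sum ranked 14, 21, 8, and 7 of 48 for miR-142-3p. Whether blood content bears on the miR-142-3p of CHO AM21 animal number 2 was not tested. miR-150 differed by -0.06 at 0 h (95% interval -0.31 to 0.19) and -0.17 at 24 h (95% interval -0.41 to 0.08), and miR-223 by -0.21 (95% interval -0.49 to 0.06) and 0.06 (95% interval -0.22 to 0.34). In untreated animals alone 0 of the 4 members were called between diets at 0, 6, 24, or 72 h, with 1 of the 4, miR-342-3p, at an unadjusted p under 0.05 at 0 h and 0 of the 4 at the other times. These contrasts called 2.1%, 0%, 2.1%, and 0% of all miRNAs, and at 6 and 72 h 13 and 14 of the 143 had an unadjusted p under 0.05.

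AM21 was compared with untreated and saline animals over both diets at 0 and 24 h, 12 animals against 24. miR-342-3p was 0.20 higher with AM21 (SE 0.10, 95% interval -0.01 to 0.40, limma adjusted p = 0.324), at 8.68 to 9.62 log2 CPM (median 9.19) against 7.90 to 9.71 (median 9.03). miR-150 differed by 0.10 (95% interval -0.09 to 0.28), miR-142-3p by 0.06 (95% interval -0.25 to 0.36), and miR-223 by 0.02 (95% interval -0.19 to 0.23). By limma 0 of the 4 were called and 0 had an unadjusted p under 0.05, with 5.59% of all miRNAs called. At 0 h alone (4.2% of all miRNAs called) and at 24 h alone (2.8%), 0 of the 4 were called and 0 had an unadjusted p under 0.05. The largest of these 8 values was 0.24 for miR-150 at 24 h (95% interval -0.02 to 0.51). The AM21 difference at 24 h minus that at 0 h called 0% of all miRNAs and 0 of the 4, with 4 of the 143 and 0 of the 4 at an unadjusted p under 0.05, and was 0.30 for miR-150 (95% interval -0.07 to 0.67). Saline against no treatment called 1.4% of all miRNAs and 0 of the 4, with 0 at an unadjusted p under 0.05, and the values ran from -0.15 for miR-223 to 0.11 for miR-342-3p.

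Other miRNAs linked to leukocytes were listed as miR-142-5p, miR-155, miR-146a, miR-146b, miR-181a, miR-181b, miR-342-5p, miR-223*, and miR-150*, of which 3 of 9 were measured. miR-181a, abundant in developing lymphocytes, was called in both F tests. It fell by 1.18 from 6 to 72 h in CHO rats (SE 0.20, limma adjusted p = 0.000461) and by 1.33 in EtOH rats (SE 0.20, limma adjusted p = 5.09e-05). miR-146a and miR-146b, induced by inflammatory signals in macrophages, were not called between 6 and 72 h, with 0.13 and -0.10 in CHO and -0.02 and 0.38 in EtOH rats. At 24 h in the pooled controls 2 of the 3 were called lower in CHO rats, miR-181a (-0.61) and miR-146a (-0.44), and 1 of the 3, miR-181a, in EtOH rats. These contrasts called 25.2% and 11.2% of all miRNAs. Between times, 0 of the 3 were called higher. With AM21 over both times, 1 of the 3, miR-146a, was called higher (0.38, limma adjusted p = 0.00531), where 5.59% of all miRNAs were called. At 0 h and at 24 h alone miR-146a was not called (limma adjusted p = 0.138 and 0.0818).

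Markers of other cells also moved over these hours. The red blood cell miRNAs miR-451 and miR-144, 2 of 3 listed, were called in both F tests, which called 32.9% of all miRNAs in CHO and 39.9% in EtOH rats. Their summed level was 1465 to 2258 CPM at 6 h and 550 to 661 CPM at 72 h in CHO rats, and 972 to 1480 and 707 to 1898 CPM in EtOH rats. miR-126, the endothelial marker measured, was at 16191 to 21515 CPM at 6 h and 25492 to 30891 CPM at 72 h in CHO rats, and at 13134 to 19940 and 31380 to 36836 CPM in EtOH rats. The summed level of 4 stellate and mesenchymal miRNAs (miR-199a-3p, miR-199a-5p, miR-143, and miR-145, of 5 listed) went from 22775 to 31107 CPM at 6 h to 13675 to 21613 CPM at 72 h in CHO rats, and from 23979 to 30173 to 12836 to 15052 CPM in EtOH rats. Of these miRNAs miR-145, a smooth muscle and mesenchymal miRNA, fell by 0.99 in CHO and by 1.54 in EtOH rats. The others in that sum were not called and mostly had the opposite sign. In CHO and EtOH rats miR-199a-3p differed by 0.49 and 0.37, miR-199a-5p by 0.30 and 0.42, and miR-143 by 0.22 and -0.14. Of the hepatocyte miRNAs miR-122, miR-192, and miR-194, 1 of 3, miR-192, was called higher at 72 h than at 6 h in each diet (0.89 and 0.85). This contrast called 30.8% of all miRNAs in CHO and 37.1% in EtOH rats. miR-451 and miR-144 fell by 1.76 and 1.44 in CHO rats, and their values of -0.25 and 0.30 in EtOH rats were not called. The part of these shifts in the differences of miR-150 and miR-142-3p was not tested.

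Over the 48 animals, the miRNAs most like miR-150 by Pearson's r of log2 CPM were miR-181a (0.88), miR-145 (0.81), and miR-125a-5p (0.75), and the least like it were miR-19b (-0.73) and miR-19a (-0.71). miR-342-3p was most like let-7a (0.67), miR-210 (0.56), and miR-31 (0.55), and least like miR-350 (-0.63) and miR-3559-5p (-0.55). For miR-142-3p the highest were miR-29b (0.64), miR-29c (0.60), and miR-19a (0.56), and the lowest miR-532-3p (-0.55) and miR-34c (-0.52). For miR-223 the highest were miR-34a (0.54), miR-17-5p (0.49), and miR-221 (0.49), and the lowest miR-151 (-0.49) and miR-23b (-0.47). These values hold group differences and the scaling shared by an animal's miRNAs. No member was among the 3 most like another.

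Group means were then removed to relate the 4 members among animals of a group. Of 14 relations among the members, miR-451, and log10 total count, 0 passed after Benjamini-Hochberg adjustment in a permutation test within groups. The highest among members was miR-150 with miR-342-3p (r = 0.41, permutation p = 0.0227, adjusted p = 0.159; rho = 0.41, permutation p = 0.0164, adjusted p = 0.0967; r = 0.33 without the 2 animals farthest from the median), with 0.51, 0.51, -0.23, and 0.89 within sets 1 to 4. The other 5 pairs lay between 0.04 and 0.20, against a median of 0.01 over all 10153 pairs of miRNAs. The r of miR-150 with miR-342-3p lay above 91.7% of those pairs. miR-342-3p and log10 total count gave r = -0.40 (permutation p = 0.077, adjusted p = 0.346), and -0.55 without the 2 farthest animals. Their rho was -0.41 (permutation p = 0.0207, adjusted p = 0.0967). miR-142-3p and the red blood cell miRNA miR-451 gave r = 0.45 (permutation p = 0.00804, adjusted p = 0.113; rho = 0.46, permutation p = 0.00523, adjusted p = 0.0732), and 0.39 without the 2 farthest animals.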

How the data were processed

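RNA from 48 rat liver samples was counted on the NanoString nCounter platform with probes for rat miRNAs. The authors normalized the counts by the trimmed mean of M values and deposited log2 CPM values for 143 miRNAs, made with voom of limma. How the 143 were chosen is not given in the sources used here. Counts were recovered from the deposited log2 values with a pseudocount of 0.5 and lay within 5.6e-05 of whole numbers. Total counts ran from 58168 to 267582, with a median of 160078. Poisson intervals cover counting error only. The limma p-values set a difference against the spread between animals within groups. That spread was estimated over all groups in the fit, not only those compared, and was moderated over the 143 miRNAs.

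Groups were taken from the labels. The deposited log2 values of all 143 miRNAs were fitted with limma 3.58.1 (R 4.3.3), without a block and without a filter on low values. The time and diet contrasts of untreated animals used the 24 untreated animals in 8 groups. The pooled, diet, AM21, and saline contrasts took 12 groups, the 36 samples of 0 and 24 h. Contrasts that share 0 h or 6 h animals are not independent. p-values were adjusted by Benjamini-Hochberg over the 143 miRNAs and called under 0.05. The tests were also run on simulated, independent normal values without set effects, pairing, or differences in total count. That run says nothing about those features. Correlations used residuals from group means and 100000 permutations within groups.

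The members and lists were chosen with earlier results of these data known. The text names the 4 members in every comparison, for each the 3 miRNAs with the highest and the 2 with the lowest Pearson correlation over 48 animals, and members of the lists called in an F test over time. Values of other list members are given beside these. The 2 tests of a difference between changes (the 24 h change between diets, and the diet difference between times) were added after the first results were seen. Replicate numbers in the labels were checked as pairs by correlating deviations from group means. All pairs exceeded 0.1 in 10 of 66 pairs of groups. Among them were 0 and 24 h in untreated CHO-fed animals (0.12, 0.30, and 0.28) and in EtOH-fed saline animals (0.42, 0.11, and 0.33). In the remaining diet and treatment groups, 0 and 24 h did not exceed 0.1 in all pairs. Untreated animals of both diets at 0 h did (0.52, 0.79, and 0.65). The main fits treated all samples as independent, so the numbered set as a block is given beside results it changed. Alternatives were other library scalings, a pseudocount of 5 counts, a filter of at least 50 counts in 3 animals, voom weights, log10 total count as a covariate, fewer or all animals in the fit, the block, and leaving out each animal. Sequences and positions came from RefSeq tables on GRCr8.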

Additional observations from a re-analysis of the deposited data

How the results depend on the processing

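Of the 15 called results of the 4 miRNAs, 7 were called under every alternative run: miR-150 and miR-223 at 24 h in pooled EtOH-fed controls, miR-150 from 6 to 72 h in EtOH-fed animals, both F tests of miR-150, the CHO F test of miR-342-3p, and the diet difference of miR-342-3p at 0 h over all treatments. Of the 65 results recomputed 0 reversed. An F value cannot change sign, and the other results were recomputed only if called or farther from 0 than their SE. The number of the 4 called moved as follows, and the cause was not tested beyond the construction of each setting. With only the groups compared in the fit, it was 0 for CHO 6 h and for CHO 72 h against 0 h, 0 for pooled CHO controls at 24 h (1 in each as reported), and 3 for the EtOH F test (1 as reported). With all 48 animals it was 1 for CHO and 1 for EtOH 24 h against 0 h (0 as reported), 2 for CHO 72 h, and 2 for the EtOH F test. With the numbered set as a replicate block it was 1 for CHO 24 h against 0 h, 2 for the EtOH F test, 1 for diet at 0 h in untreated animals, and 3 for the CHO F test (2 as reported), and the block changed no other count of the 4. Geometric-mean scaling over the 100 most abundant miRNAs gave 2 for CHO 72 h and 2 for the EtOH F test, total count without miR-122 gave 0 for CHO 72 h, and RLE factors and voom weights each gave 2 for the EtOH F test and 3 for the CHO F test. With log10 total count in the fit it was 0 for EtOH 72 h against 0 h, 0 for CHO 72 h against 6 h (2 as reported), and 1 for EtOH 72 h against 6 h (3 as reported). Without both number 2 untreated animals at 0 h, a setting chosen after seeing the data, it was 2 for EtOH 6 h against 0 h, 0 for EtOH 72 h, and 3 for each of the EtOH and CHO F tests.

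Leaving out 1 animal gave 0 to 1 for CHO 6 h, 0 to 2 for CHO 72 h, 0 to 1 for EtOH 72 h against 0 h, 1 to 2 for the EtOH and 2 to 3 for the CHO F test, 1 to 2 for CHO and 1 to 3 for EtOH 72 h against 6 h, 0 to 1 for diet at 0 h in untreated animals, and 1 to 2 over all treatments. Calls over all 143 miRNAs also moved, in the contrasts below among others. They come from a larger set than the members, so the sizes of the movements are not compared. For CHO 6 h against 0 h they went from 3 to between 1 and 54. EtOH 6 h against 0 h went from 16 to between 1 and 56. At 24 h against 0 h, CHO went from 2 to between 0 and 19 and EtOH from 2 to between 0 and 8. CHO 72 h against 0 h went from 26 to between 5 and 30. CHO 72 h against 6 h went from 44 to between 8 and 59. The CHO F test went from 47 to between 29 and 73, and pooled CHO controls from 36 to between 12 and 43. Diet over all treatments went from 21 to between 13 and 26 at 0 h. At 24 h it went from 2 to between 2 and 7. Untreated diets at 0 and at 24 h each went from 3 to between 0 and 8. AM21 at 0 h went from 6 to between 3 and 6, and saline from 2 to between 0 and 2. These ranges over all 143 leave out the omission of 1 animal, which went beyond them in some contrasts. It gave 0 to 46 calls for CHO 6 h, 0 to 42 for EtOH 6 h, and 11 to 34 for CHO 72 h. The CHO F test had 24 to 63, diet over all treatments 17 to 27 at 0 h and 0 to 3 at 24 h, and AM21 at 0 h 3 to 7. Scaling to the geometric mean moved the median of all miRNAs by 0.13 for EtOH 6 h against 0 h and by -0.15 for EtOH 72 h against 6 h, and total count without miR-122 moved it by 0.11, -0.14, and, for CHO 72 h against 6 h, -0.12. The lowest counts, 18 for miR-223 and 29 for miR-342-3p, limit what small differences could show.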
